A study of Mus musculus with 24 samples.

Results

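Trichohyalin, the homeobox factor Hoxc13, the lipid enzyme Sdr9c7, the desmosomal cadherin Dsc1, the cornified envelope precursors Sprr1a, Sprr1b and Ivl, and the transglutaminases Tgm1 and Tgm3 form a set of 9 hair follicle and epidermal barrier genes. Their RNA was read with mouse arrays in what the submitters call the neural fraction of tumour stroma. The set was chosen by name: a probe set was taken if the array annotation gave it a single gene symbol and that symbol was one of the 9. This gave 12 probe sets of 45141, and 9 genes of the 17097 that had such a probe set. Tchh, Hoxc13, Sdr9c7 and Dsc1 had been picked because they were seen to respond to diet in these arrays, so their diet differences are given as a description and were not tested. The same holds in part for Sprr1a, whose rise on the palmitic acid diet with shEGR2_38.9 was known from an earlier look at the data, so its values there, and the differences between diet effects that contain them, are also given with no test.

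The tumours were orthotopic xenografts, in NSG mice, of the human oral carcinoma line SCC25. NSG is an immunodeficient strain without lymphocytes. Their cells carried the non-targeting vector PLKO, a hairpin against EGR2 (shEGR2_40.9 or shEGR2_38.9) or a hairpin against GAL (shGAL), and the mice were fed either control chow or food with much palmitic acid, a saturated fat (PA-rich diet). EGR2 is a transcription factor known for driving myelination, and galanin, the product of GAL, is a neuropeptide. Each of the 8 groups had 3 arrays, which the series describes as technical replicates. The p-values therefore measure the spread between arrays, which may be technical, and the labels used here do not say how many animals stand behind a group. The hairpins act in tumour cells of human origin and the probes were made for mouse RNA, and binding of human transcripts to the mouse probes was not tested.

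Keratinocytes that leave the basal layer build a cornified envelope, a protein shell in which small proline-rich proteins and involucrin are cross-linked by transglutaminases, and coat it with lipids made by a dedicated enzyme set. Hair follicles and the filiform papillae of the tongue use related programmes: trichohyalin hardens the inner root sheath and papilla cells, and Hoxc13 is needed for hair, nail and papilla keratins. These are programmes of stratified epithelium.

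Sprr1a, Sprr1b and Ivl lie on chromosome 3, as does Tchh, and the upstream windows of the first 3 are shown because Sprr1a and Sprr1b moved together on these arrays while Ivl did not follow them. Tgm3, on chromosome 2, is added as the transglutaminase with the larger diet difference with shEGR2_38.9. Tgm1, which is not printed, moved the same way there by less (0.35, against 1 for Tgm3). Each line gives the 250 bases before the RefSeq start site (build GRCm38.p6), 5′ to 3′ in the direction of transcription. Capitals mark the letters TGANTCA, the binding motif of AP-1 factors, and TATAAA.
Sprr1a (chr3:92485882-92486131, minus strand): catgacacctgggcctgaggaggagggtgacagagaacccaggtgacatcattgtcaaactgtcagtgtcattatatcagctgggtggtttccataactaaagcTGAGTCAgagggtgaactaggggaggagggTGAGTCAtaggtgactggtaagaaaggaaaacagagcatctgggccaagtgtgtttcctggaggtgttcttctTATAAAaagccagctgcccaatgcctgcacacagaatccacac
Sprr1b (chr3:92438780-92439029, minus strand): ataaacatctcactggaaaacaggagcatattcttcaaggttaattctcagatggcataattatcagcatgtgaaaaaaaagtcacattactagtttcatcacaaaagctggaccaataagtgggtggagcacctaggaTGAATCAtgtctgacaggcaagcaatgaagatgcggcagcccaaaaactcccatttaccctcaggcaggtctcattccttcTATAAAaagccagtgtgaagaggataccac
Ivl (chr3:92573736-92573985, minus strand): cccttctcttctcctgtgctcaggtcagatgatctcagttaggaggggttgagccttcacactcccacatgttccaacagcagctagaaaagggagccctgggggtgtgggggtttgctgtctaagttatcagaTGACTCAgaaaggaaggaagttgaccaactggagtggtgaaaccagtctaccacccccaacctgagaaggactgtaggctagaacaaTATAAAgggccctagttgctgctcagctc
Tgm3 (chr2:130012090-130012339, plus strand): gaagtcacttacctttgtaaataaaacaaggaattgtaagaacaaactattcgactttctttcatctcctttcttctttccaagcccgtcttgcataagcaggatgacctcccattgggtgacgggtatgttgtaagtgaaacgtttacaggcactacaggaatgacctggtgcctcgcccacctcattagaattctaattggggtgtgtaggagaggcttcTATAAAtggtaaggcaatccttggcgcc
The Sprr1a window held TGAGTCA at 2 places, from -146 to -140 and from -116 to -110 relative to the start. Sprr1b held TGAATCA from -111 to -105, and Ivl held TGACTCA from -116 to -110. TATAAA began at -43 in Sprr1a, -30 in Sprr1b, -29 in Ivl and -28 in Tgm3, and the Tgm3 window held no TGANTCA. The letters TGANTCA, which read the same on either strand, occurred in 6.75% of 32851 promoter windows of this length, and TATAAA, searched on both strands, in 12.4%. Windows of 7 of the 9 genes were read, 8 in all, without Hoxc13 and Dsc1. Of these windows 3 held TGANTCA and 5 held TATAAA, the fifth TATAAA being that of Sdr9c7. Those of Tchh and Tgm1 held neither. These matches describe the letters and show no binding.

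The fraction carried strong epithelial signal on every array. The mean log2 level of 9 basal keratinocyte markers was between 11.69 and 12.18 on all 24 arrays, with Krt14 at 13.14 to 13.22 and Krt5 at 12.77 to 13.00 in the 8 group means. Of 15 Schwann cell and glial markers 7 were above the floor used here, 4 were below it (S100b, Gfap, Foxd3 and Mag) and 4 had no probe set of their own. The group means were 7.44 to 7.57 for Sox10, 7.97 to 8.51 for Ngfr, 10.66 to 11.3 for Erbb3 and 10.76 to 11.33 for Pmp22. Those of Ncam1, Mbp and Cnp lay between 7.26 and 7.66. Of 10 neuron markers 3 were above the floor, Tubb3 at 8.89 to 9.63, Stmn2 at 7.14 to 7.33 and Prph at 6.93 to 7.15. Array medians ran from 6.71 to 6.81. The array shEGR2_38.9 control replicate 3 stood apart, with a mean of 7.09 against 7.15 to 7.17 on the others and a mean correlation with its own group of 0.978 against 0.987 to 0.997, so the main results with shEGR2_38.9 are also given without it. In these bulk samples, fewer cells of a type and less RNA per cell cannot be told apart.

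**Figure D1:**
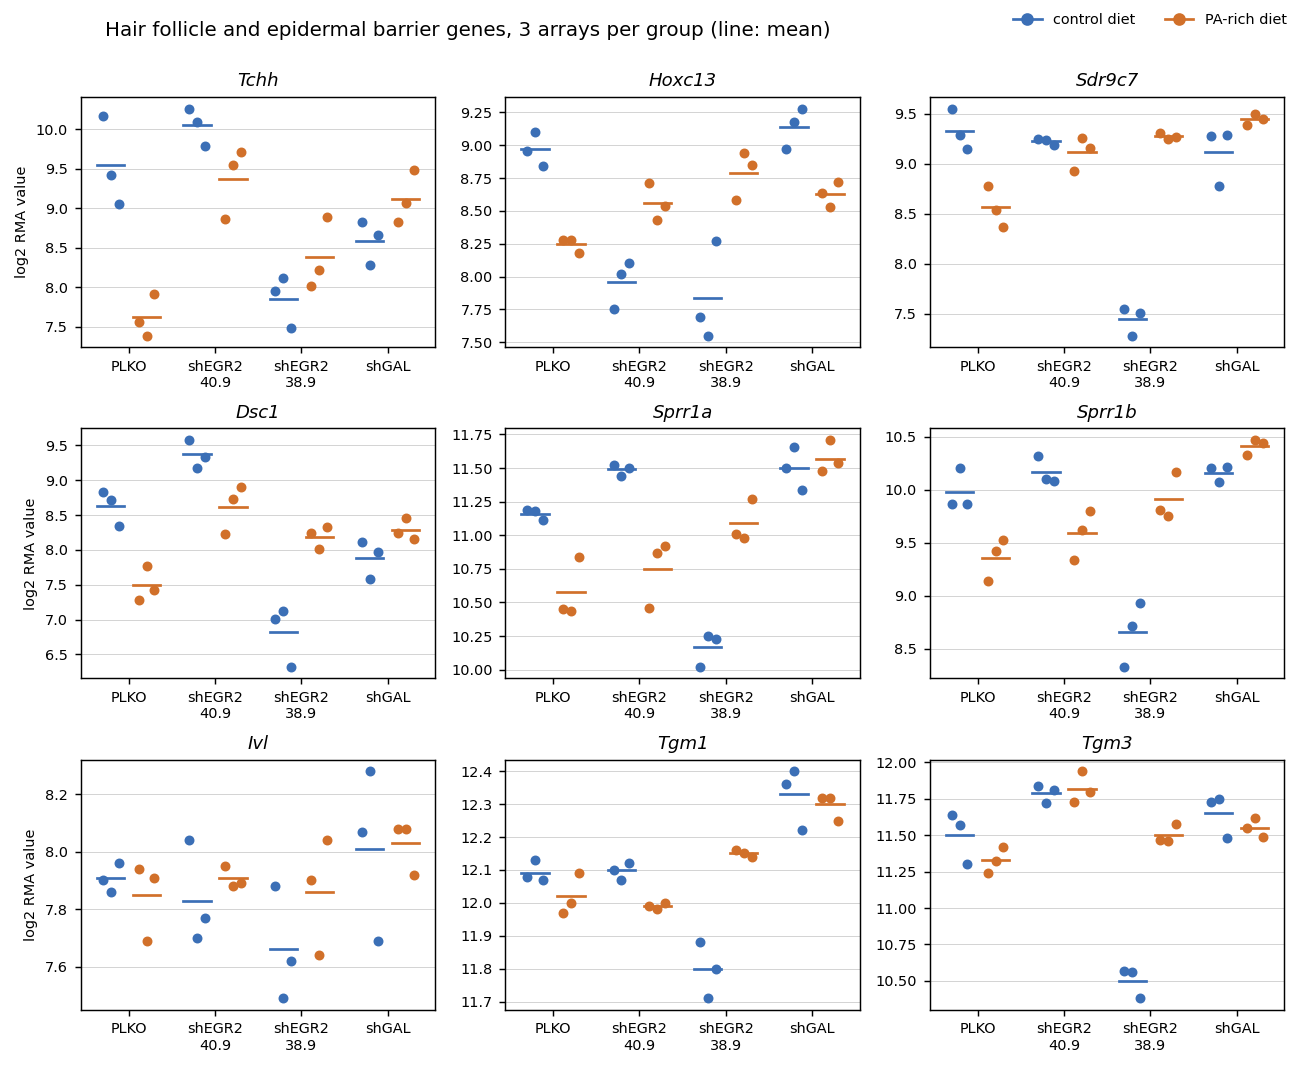
Log2 RMA values (y axis, separate scale per gene) of the 9 genes in the 4 hairpins (x axis) on the control diet (blue) and the PA-rich diet (orange); points are arrays, 3 per group, and lines are group means. In 8 of the 9 genes the lowest group mean is shEGR2_38.9 on the control diet, and Tchh is lowest in PLKO on the PA-rich diet at 7.62.

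All 9 genes lay above the floor for dim genes, a log2 mean of 6.27. The shEGR2_38.9 control group had the lowest mean for 8 of the 9, the exception being Tchh. The distance from the lowest to the highest group mean was 2.54 for Dsc1, 2.42 for Tchh, 2.00 for Sdr9c7, 1.75 for Sprr1b, 1.41 for Sprr1a, 1.32 for Tgm3 and 1.30 for Hoxc13. It was smaller for Tgm1, at 0.53, and for Ivl, at 0.36. The median over all 11844 genes kept was 0.34, so Ivl varied about as much as a typical gene on these arrays. The spread of arrays within groups, as a residual SD, ran from 0.05 for Tgm1 to 0.38 for Tchh.

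Tchh encodes trichohyalin, the matrix protein of the inner root sheath and of filiform papillae. With PLKO it read 10.16, 9.42 and 9.05 on the control diet and 7.56, 7.39 and 7.92 on the PA-rich diet. With shEGR2_40.9 it read 10.26, 10.09 and 9.79 on the control diet and 8.86, 9.54 and 9.71 on the PA-rich diet. Palmitic acid food went with less Tchh for these hairpins, with mean differences of -1.92 ± 0.74 and -0.68 ± 0.66 (SD of the differences of 3 replicate numbers), and the diets did not overlap. With shEGR2_38.9 the values were 7.95, 8.12 and 7.49 on the control diet against 8.02, 8.22 and 8.89. With shGAL they were 8.82, 8.28 and 8.66 against 8.82, 9.07 and 9.48. The shEGR2_38.9 diets overlapped, with a mean difference of 0.53 ± 0.76, or 0.35 without the array that stood apart, and most of it came from replicate number 3 (1.40, against 0.08 and 0.10). For shGAL the difference was 0.54 ± 0.46, with replicate number 1 at 0.0039.

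In the order of group means Tchh ran from shEGR2_40.9 control (10.05) through PLKO control (9.54), shEGR2_40.9 PA-rich (9.37), shGAL PA-rich (9.12), shGAL control (8.59), shEGR2_38.9 PA-rich (8.38) and shEGR2_38.9 control (7.85) to PLKO PA-rich (7.62). Every neighbouring pair in this order overlapped in its arrays.

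Hoxc13, the homeobox factor of hair, nail and papilla keratinisation, did not follow Tchh. With PLKO its values were 8.96, 9.10 and 8.84 on the control diet and 8.28, 8.28 and 8.18 on the PA-rich diet, a mean difference of -0.72 ± 0.09. With shGAL they were 8.97, 9.18 and 9.28 against 8.64, 8.53 and 8.72, a difference of -0.51 ± 0.17. For PLKO and shGAL, Hoxc13 was therefore lower under palmitic acid, without overlap. With shEGR2_40.9 the values were 7.75, 8.02 and 8.10 against 8.71, 8.43 and 8.54, a difference of 0.60 ± 0.32. With shEGR2_38.9 they were 7.69, 7.55 and 8.27 against 8.58, 8.94 and 8.85, a difference of 0.95 ± 0.41, or 1.17 without the array that stood apart. Hoxc13 was higher on the PA-rich diet with either EGR2 hairpin, again without overlap. Its level was highest in shGAL control (9.14) and PLKO control (8.97) and lowest in the control groups of shEGR2_40.9 (7.96) and shEGR2_38.9 (7.84). The last 2 overlapped each other, and both lay below PLKO PA-rich (8.25) without overlapping it in the case of shEGR2_40.9.

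Sdr9c7 encodes a dehydrogenase that acts on the epidermal barrier lipids. With PLKO it read 9.55, 9.29 and 9.15 on the control diet and 8.78, 8.54 and 8.37 on the PA-rich diet, a difference of -0.76 ± 0.02. With shEGR2_38.9 it read 7.55, 7.28 and 7.51 on the control diet and 9.31, 9.25 and 9.27 on the PA-rich diet, a difference of 1.83 ± 0.12, or 1.87 without the array that stood apart. The 3 low arrays of shEGR2_38.9 control set this gene's range, and the other 7 groups lay between 8.57 and 9.45. With shEGR2_40.9 the diets overlapped (9.25, 9.24 and 9.19 against 8.93, 9.26 and 9.16). With shGAL they did not (9.28, 8.78 and 9.29 against 9.39, 9.50 and 9.45), with a difference of 0.33 ± 0.34. A second Sdr9c7 probe set correlated with the first at 0.91 over 24 arrays and gave smaller differences of -0.23 with PLKO and 1.07 with shEGR2_38.9. On this second probe set the diets overlapped with PLKO, shEGR2_40.9 and shGAL, and did not with shEGR2_38.9.

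Dsc1 encodes desmocollin 1, the cadherin of desmosomes in the outer living layers of epidermis. With PLKO it read 8.83, 8.71 and 8.35 on the control diet and 7.28, 7.77 and 7.42 on the PA-rich diet, a difference of -1.14 ± 0.35. With shEGR2_40.9 it read 9.58, 9.17 and 9.34 against 8.23, 8.73 and 8.90, a difference of -0.75 ± 0.52. As for Tchh, these hairpins had lower Dsc1 under palmitic acid, without overlap. With shEGR2_38.9 it read 7.01, 7.13 and 6.32 against 8.24, 8.01 and 8.33, a difference of 1.37 ± 0.58, or 1.12 without the array that stood apart. With shGAL it read 8.12, 7.59 and 7.97 against 8.25, 8.46 and 8.15, a difference of 0.39 ± 0.41. Here Dsc1 was higher on the PA-rich diet, without overlap. The second Dsc1 probe set correlated with the first at 0.95 over 24 arrays and had the same sign with each hairpin.

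Among Tchh, Hoxc13, Sdr9c7 and Dsc1, the diets did not overlap for 4 of 4 genes with PLKO, 3 of 4 with shEGR2_40.9, 3 of 4 with shEGR2_38.9 and 4 of 4 with shGAL. These counts use the brightest probe set of each gene. Over all 11844 genes the corresponding shares were 20.9%, 31.2%, 34.6% and 21.1%. The genes were chosen on this contrast, so nothing is read from these counts. Each of the 4 had a mean below control chow for PLKO and above it for shEGR2_38.9.

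**Figure D2:**
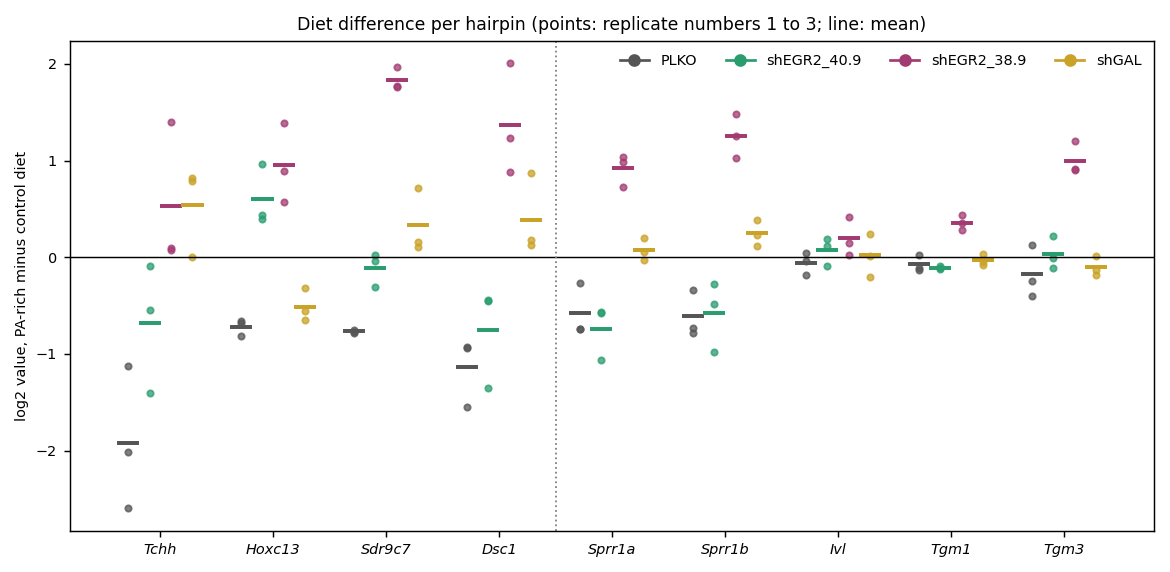
Difference of log2 values, PA-rich minus control diet (y axis), for each gene (x axis) and hairpin (colour); points are the 3 replicate numbers, each a pair of arrays scanned in one batch, and short lines are means. Genes left of the dotted line were chosen on this contrast. With shEGR2_38.9 the points of all 9 genes lie above 0, some of Tchh and Ivl close to it. With PLKO those of Tchh, Hoxc13, Sdr9c7, Dsc1, Sprr1a and Sprr1b lie below 0.

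For Sprr1a, Sprr1b, Ivl, Tgm1 and Tgm3 the diet effect was tested with each hairpin, using limma across all genes with Benjamini-Hochberg adjustment. Sprr1a with shEGR2_38.9 is described only. Sprr1a and Sprr1b, small proline-rich precursors of the cornified envelope, fell on the PA-rich diet with PLKO and with shEGR2_40.9. With shEGR2_38.9 Sprr1b rose, as did Tgm3 and Tgm1, which cross-link the envelope, and Sprr1a had the higher mean already known. No gene of the 5 passed with shGAL, and Ivl passed with no hairpin.

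Sprr1a read 11.19, 11.18 and 11.11 with PLKO on the control diet and 10.45, 10.44 and 10.84 on the PA-rich diet, a change of -0.58 (SE 0.12, adjusted p = 0.014). With shEGR2_40.9 it read 11.52, 11.44 and 11.50 against 10.46, 10.87 and 10.92, a change of -0.74 (SE 0.12, adjusted p = 0.000225). With shEGR2_38.9 it read 10.02, 10.25 and 10.23 against 11.01, 10.98 and 11.27, a difference of 0.92, given as a description. Within each of these hairpins the diets did not overlap. With shGAL, 11.50, 11.66 and 11.34 overlapped 11.48, 11.71 and 11.54 (0.07, SE 0.12, adjusted p = 0.813). The highest means of Sprr1a were those of shGAL on either diet and of shEGR2_40.9 control, which overlapped one another.

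Sprr1b followed the same course at its own level. With PLKO it read 9.87, 10.20 and 9.87 against 9.14, 9.42 and 9.53 on the PA-rich diet, a change of -0.61 (SE 0.14, adjusted p = 0.0329). With shEGR2_40.9 it read 10.32, 10.10 and 10.08 against 9.34, 9.62 and 9.80, a change of -0.58 (SE 0.14, adjusted p = 0.0112). With shEGR2_38.9 it read 8.33, 8.72 and 8.93 against 9.81, 9.75 and 10.17, a change of 1.25 (SE 0.14, adjusted p = 9.08e-07). In these hairpins the diets did not overlap. With shGAL it read 10.20, 10.07 and 10.21 against 10.33, 10.47 and 10.44, and this difference of 0.25 did not pass (SE 0.14, adjusted p = 0.415) although the arrays did not overlap.

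Tgm3, the transglutaminase of hair follicle and upper epidermis, read 10.57, 10.56 and 10.38 with shEGR2_38.9 on the control diet and 11.47, 11.46 and 11.58 on the PA-rich diet, a change of 1.00 (SE 0.09, adjusted p = 4.57e-08). In the other 7 groups its arrays were all at 11.24 or above, so the 3 low arrays were those of a single group. Its differences with PLKO (-0.17), shEGR2_40.9 (0.03) and shGAL (-0.10) did not pass, with adjusted p = 0.515, 0.886 and 0.643. Tgm1, the transglutaminase of the epidermal envelope, rose by 0.35 with shEGR2_38.9 (SE 0.06, adjusted p = 0.000191), from 11.88, 11.71 and 11.80 to 12.16, 12.15 and 12.14. Its other diet differences lay between -0.11 and -0.03. Ivl encodes involucrin, an early envelope protein, and its 24 values ran from 7.49 to 8.28. Its diet differences were -0.06, 0.07, 0.20 and 0.02 with PLKO, shEGR2_40.9, shEGR2_38.9 and shGAL, with adjusted p = 0.919, 0.817, 0.286 and 0.969. The second Ivl probe set averaged 5.70, below the floor.

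In counts, 2 of 5 genes fell with PLKO, where 1.18% of all genes were called, 0.371% higher and 0.811% lower. With shEGR2_40.9 2 of 5 fell, where 8.95% of all genes were called, 3.73% higher and 5.22% lower. With shEGR2_38.9 Sprr1b, Tgm1 and Tgm3 passed as higher and Ivl did not, where 22.1% were called, 13.8% higher and 8.3% lower. Sprr1a, given there as a description, is no independent evidence and is not counted. Sprr1b, which correlated with Sprr1a at 0.95 over 24 arrays, largely repeats it. Tgm1 and Tgm3 correlated with Sprr1a less closely, at 0.86 and 0.73. With shGAL 0 of 5 were called by limma (1.94% of all genes, 1.33% higher and 0.608% lower), and 0 had an unadjusted p under 0.05. The rises with shEGR2_38.9 held without the array that stood apart, at 1.39 for Sprr1b, 0.35 for Tgm1 and 0.94 for Tgm3, and Sprr1a was then at 0.95. The 2 falls with PLKO did not hold in a fit of only the PLKO arrays, where adjusted p = 0.0661 for Sprr1a and 0.0855 for Sprr1b. Sprr1a also lost its call with PLKO when control replicate 1 or 2 or PA-rich replicate 1 or 2 was left out, and Sprr1b when any of these or control replicate 3 was left out. With shEGR2_40.9, Sprr1b lost its call without control replicate 1 (adjusted p = 0.0657) or PA-rich replicate 1 (adjusted p = 0.0886).

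Whether the diet effect differed between hairpins was tested as an interaction. Against PLKO, the diet effect with shEGR2_38.9 was higher by 1.87 for Sprr1b (SE 0.20, adjusted p = 2.2e-06), 1.17 for Tgm3 (SE 0.13, adjusted p = 2.38e-06) and 0.43 for Tgm1 (SE 0.09, adjusted p = 0.00188). For Sprr1a the difference was 1.5, which holds the known rise and is a description. Those of Sprr1b, Tgm3 and Tgm1 passed, where 13.4% of all genes were called, 7.84% higher and 5.52% lower. The difference for Ivl was 0.25 (SE 0.18, adjusted p = 0.404). Set against shEGR2_40.9, a comparison added after the values were seen, the same genes were called, with 1.83 for Sprr1b, 0.97 for Tgm3 and 0.46 for Tgm1. Over all genes 5.57% were called there, 3.77% higher and 1.81% lower. Sprr1a, again as a description, differed by 1.66. Without the array that stood apart the differences from PLKO were 2.00 for Sprr1b, 1.11 for Tgm3, 0.43 for Tgm1 and 1.53 for Sprr1a. Those from shEGR2_40.9 were then 1.97, 0.91, 0.46 and 1.69 in the same order. Between shEGR2_40.9 and PLKO 0 of 5 diet effects were called to differ by limma (4.16% of all genes, 1.8% higher and 2.36% lower), and 0 had an unadjusted p under 0.05. Between shGAL and PLKO 1 of 5 was called (1.33% of all genes, 1.01% higher and 0.321% lower), Sprr1b at 0.86 (SE 0.20, adjusted p = 0.0331). Sprr1a at 0.66 (SE 0.17) did not pass with an adjusted p of 0.0564 but did with the scan batch as a block, at an adjusted p of 0.0371. The call for Sprr1b was lost in 7 of the 24 fits that left out 1 array, those without PLKO control replicate 2, PLKO PA-rich replicate 1 or 2, shGAL control replicate 1 or 2, or shGAL PA-rich replicate 2 or 3, with adjusted p up to 0.113. The 3 interactions against PLKO share the PLKO arrays. The diet effects with shEGR2_38.9, the interactions that contain them and its means over both diets share its 3 control arrays. That group had the lowest mean for 8 of the 9 genes.

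**Figure D3:**
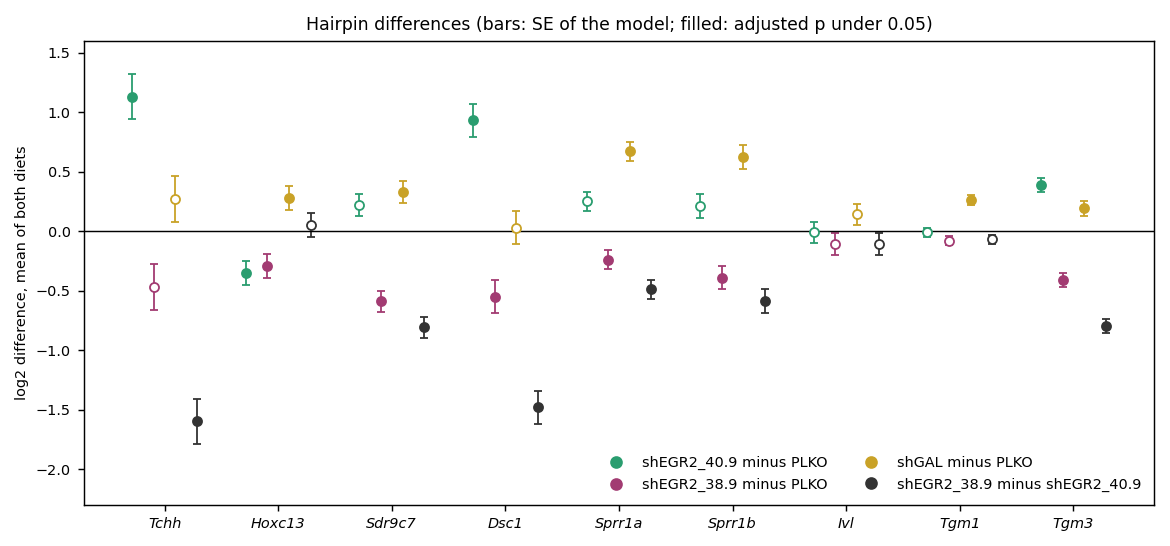
Log2 difference between hairpins averaged over both diets (y axis) for each gene (x axis); colours are the 4 comparisons, bars are the SE of the limma model, and filled points have an adjusted p under 0.05. Tchh and Dsc1 lie above 0 for shEGR2_40.9 minus PLKO (1.13 and 0.93) and below 0 for shEGR2_38.9 minus shEGR2_40.9 (-1.6 and -1.48).

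The comparison of hairpins averaged over both diets does not use the diet contrast, so all 9 genes were tested. With shEGR2_40.9 the follicle and desmosome genes Tchh and Dsc1 were higher than with PLKO, by 1.13 (SE 0.19, adjusted p = 0.000265) and 0.93 (SE 0.14, adjusted p = 7.24e-05). Tgm3 was higher by 0.39 (SE 0.06, adjusted p = 0.00021), and Hoxc13 was lower by 0.35 (log2 -0.35, SE 0.10, adjusted p = 0.0245). These are 4 of 9, where 12% of all genes were called, 7.67% higher and 4.32% lower. Tchh, Dsc1 and Tgm3 had the same sign on each diet, at 0.51 and 1.75 for Tchh, 0.73 and 1.13 for Dsc1, and 0.29 and 0.49 for Tgm3 (control diet first). Within the 1 scan batch that the hairpins share they differed by 0.70, 0.85 and 0.35. Hoxc13 was lower on the control diet (-1.01) and higher on the PA-rich diet (0.31). Its call was lost in 5 of the 24 fits that left out an array, those without PLKO replicate 2 of either diet, shEGR2_40.9 control replicate 1 or shEGR2_40.9 PA-rich replicate 2 or 3, with adjusted p up to 0.0726.

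With shEGR2_38.9, 6 of 9 genes were lower than with PLKO over both diets, where 19.6% of all genes were called, 8.97% higher and 10.7% lower. They were Sdr9c7 (-0.59, SE 0.09, adjusted p = 5.7e-05), Dsc1 (-0.55, SE 0.14, adjusted p = 0.00708), Tgm3 (-0.41, SE 0.06, adjusted p = 7.57e-05), Sprr1b (-0.39, SE 0.10, adjusted p = 0.00939), Hoxc13 (-0.29, SE 0.10, adjusted p = 0.042) and Sprr1a (-0.24, SE 0.08, adjusted p = 0.0476). These means joined opposite signs: on the control diet the 6 differences from PLKO lay between -1.88 (Sdr9c7) and -0.99 (Sprr1a), and on the PA-rich diet between 0.17 (Tgm3) and 0.71 (Sdr9c7). Within the shared scan batch the 6 were between -0.67 (Dsc1) and -0.20 (Sprr1a). Hoxc13 did not pass in 4 of the alternative settings, with adjusted p from 0.0522 to 0.0934 (the highest with the scan batch as a block), nor did Sprr1a in 4, with adjusted p from 0.0572 to 0.0675. Leaving out 1 array at a time ended the call of Hoxc13 in 10 and of Sprr1a in 14 of 24 fits, arrays of hairpins outside the comparison among them, with adjusted p up to 0.114 and 0.152. Without the array that stood apart the same 6 passed, with Hoxc13 at -0.40 and Sprr1a at -0.26 (adjusted p = 0.0498). Tchh at -0.47 (SE 0.19, adjusted p = 0.0829), Ivl and Tgm1 did not pass.

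With shGAL, 6 of 9 genes were higher than with PLKO over both diets, where 24.2% of all genes were called, 11.2% higher and 13% lower. Sprr1a was higher by 0.67 (SE 0.08, adjusted p = 4.93e-06), Sprr1b by 0.62 (SE 0.10, adjusted p = 0.000103) and Tgm1 by 0.26 (SE 0.04, adjusted p = 0.000133). With the control diet first, the differences were 0.34 and 1 for Sprr1a, 0.18 and 1.05 for Sprr1b, and 0.24 and 0.28 for Tgm1. On the control diet the Sprr1b arrays of shGAL and PLKO overlapped. Sdr9c7 was higher by 0.33 (SE 0.09, adjusted p = 0.00775), a mean of -0.22 with control chow and 0.88 with palmitic acid. Hoxc13 at 0.28 (SE 0.10, adjusted p = 0.0449) and Tgm3 at 0.19 (SE 0.06, adjusted p = 0.035) were near the threshold. With the scan batch as a block Sdr9c7 (adjusted p = 0.0599) and Tgm3 (adjusted p = 0.176) did not pass. Hoxc13 lost its call in 11 and Tgm3 in 7 of the 24 fits without an array, with adjusted p up to 0.109 and 0.123. Tchh at 0.27 and Dsc1 at 0.03 did not pass, and each joined a difference below 0 on the control diet (-0.95 and -0.74) with one above 0 on the PA-rich diet (1.5 and 0.80). The 3 comparisons with PLKO share its 6 arrays.

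The EGR2 hairpins also differed from each other over both diets, with 6 of 9 genes lower in shEGR2_38.9 where 10.7% of all genes were called, 4.71% higher and 5.96% lower. Tchh was lower by 1.6 (log2 -1.6, SE 0.19, adjusted p = 4.81e-06), Dsc1 by 1.48 (log2 -1.48, SE 0.14, adjusted p = 2.59e-07), Sdr9c7 by 0.81 (log2 -0.81, adjusted p = 2.08e-06) and Tgm3 by 0.80 (log2 -0.80, adjusted p = 1.9e-08). Sprr1b (-0.59) and Sprr1a (-0.49) also passed. For Tchh, Dsc1 and Tgm3 the difference had the same sign on each diet, and for Sdr9c7, Sprr1a and Sprr1b it was below 0 on the control diet only. Without the array that stood apart these were -1.5 for Tchh, -1.36 for Dsc1, -0.83 for Sdr9c7, -0.77 for Tgm3, -0.66 for Sprr1b and -0.51 for Sprr1a.

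Other genes of the same programmes were read from lists chosen with earlier results of these data known. With shEGR2_38.9, 17 of 27 other cornified envelope genes were higher on the PA-rich diet than on the control diet, and the other 10 did not pass. The median of the 27 was 0.47 against 0.07 over all genes, and 13.8% of all genes were higher. Examples by size were Sprr2d (1.52, adjusted p = 0.00347), Cnfn (1.34, adjusted p = 2.63e-07), Sprr2a1 (1.16) and Krt10 (0.82), which encode envelope proteins and a keratin of the suprabasal layers. Members of the Sprr2 family are close copies, and their probe sets may share signal. Of 18 lipid barrier genes 10 rose and 8 did not pass (median 0.47), led by Alox12b (1.45, adjusted p = 3.42e-07), a lipoxygenase of the barrier, Acer1 (1.29, adjusted p = 3.1e-10), an epidermal ceramidase, the ceramide synthase Cers3 (1.03) and the fatty acid elongase Elovl4 (1.02). Of 12 desmosome and adhesion genes 8 rose and 4 did not pass (median 0.32), among them the desmogleins Dsg1a (1.16, adjusted p = 4.49e-08) and Dsg1b (0.91). Without the array that stood apart the rises were 13 of 27, 10 of 18 and 6 of 12, where 10.4% of all genes were higher. Of the genes named here, all but Sprr2d had their lowest group mean in shEGR2_38.9 control. Acer1 was at 9.19 there and at 10.22 to 10.69 in the other groups, and Dsg1a at 8.97 against 9.95 to 10.37. A rise with the diet and a low preparation of that control group cannot be told apart.

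Among 9 tongue and oral epithelium genes 5 rose with shEGR2_38.9 (median 0.24), as in the other lists here against 13.8% of all genes higher: Krt84 (2.02, adjusted p = 3.67e-08), Krt6b (1.37), Krt36 (1.16), Krt4 (1.10) and Krt13 (0.24). Krt84 and Krt36 are hard keratins found in tongue papillae, and Krt4 and Krt13 are keratins of the oral lining. The group means of Krt84 were 9.91 in shEGR2_38.9 control and 11.39 to 11.94 in the other 7 groups. Of 11 inner root sheath and hair shaft genes 3 rose, Krt35 (1.42, adjusted p = 1.99e-05), Ctsc (0.81) and Krt33b (0.29), with a median of 0.19. Of 17 follicle factors 6 rose, with Foxq1 (0.88), Dlx3 (0.47), Sostdc1 (0.43) and Foxn1 (0.38) as the largest (median 0.25). Ovol1, which rose by 0.25, stands on this list and on that of the envelope. Without the array that stood apart 5 of 9, 2 of 11 and 4 of 17 rose, against 10.4% of all genes. Of the other genes of the HoxC cluster 2 of 8 were kept and 0 were called in any comparison by limma, with at most 1 at an unadjusted p under 0.05. Of 9 basal keratinocyte markers 1 rose, Lama3 (0.41), a share near that of all genes.

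With PLKO the PA-rich diet lowered 5 of 18 lipid barrier genes (median -0.22), where 0.811% of all genes fell: Alox12b (-0.82, adjusted p = 0.00736), Abca12 (-0.60), Sptlc3 (-0.46), Cyp4f39 (-0.45) and Acer1 (-0.36). Of 27 cornified envelope genes 2 fell, Cnfn (-0.72, adjusted p = 0.00915) and Krtdap (-0.68, adjusted p = 0.00135), a secreted protein of differentiating keratinocytes. With shEGR2_40.9 2 lipid barrier genes fell, Alox12b (-0.56) and Ugcg (-0.52), and 1 envelope gene, Scel (-0.74), where 5.22% of all genes fell. With shGAL Scel rose (0.91, adjusted p = 0.0109) and 0 of 18 lipid barrier genes were called by limma, with 6 at an unadjusted p under 0.05. Among the follicle factors Sostdc1, a secreted BMP and Wnt antagonist, rose with PLKO (0.68) and shEGR2_40.9 (1.26), Foxq1 rose (0.74) and Lef1 fell (-0.55) with shEGR2_40.9, and Dlx3 fell with PLKO (-0.53) and shGAL (-0.66).

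**Figure D4:**
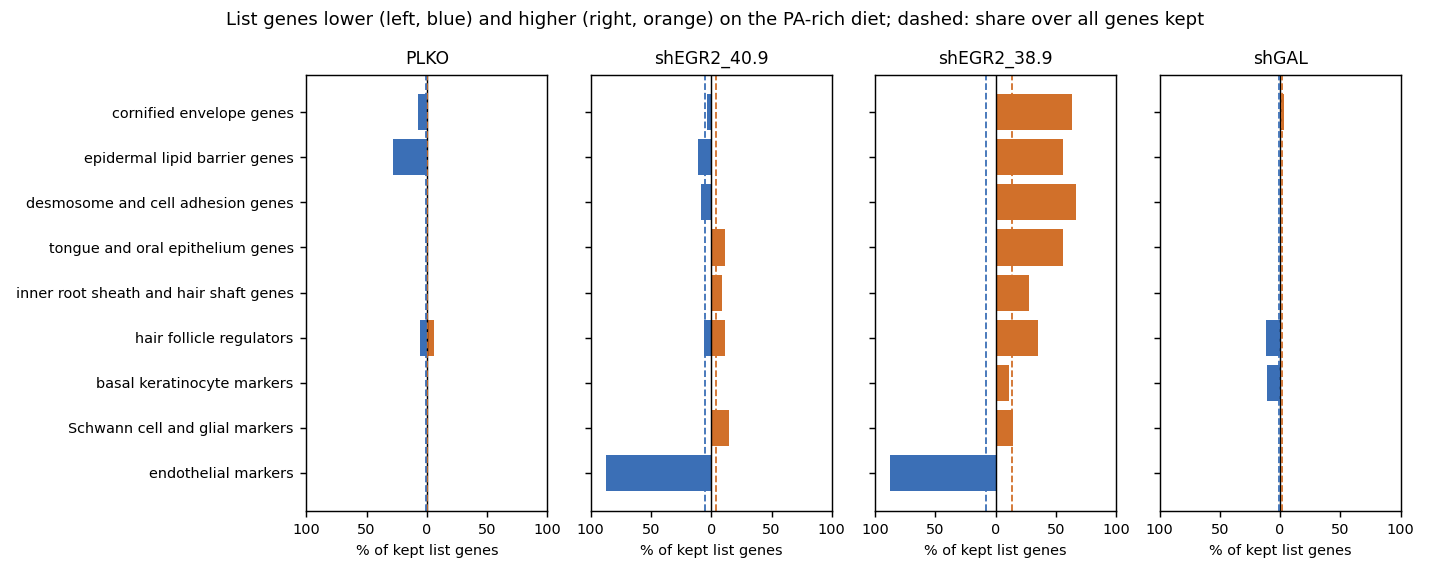
Share of the kept genes of each list (rows) that were lower (bars to the left, blue) or higher (bars to the right, orange) on the PA-rich diet with an adjusted p under 0.05, in % (x axis), for each hairpin (panels); dashed lines are the shares over all genes kept. With shEGR2_38.9, 17 of 27 cornified envelope genes were higher and 7 of 8 endothelial markers were lower, and with shEGR2_40.9 7 of 8 endothelial markers and 1 of 27 envelope genes were lower.

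Across hairpins, over both diets, shEGR2_38.9 had 10 of 27 envelope genes lower than PLKO with and without the array that stood apart (10.7% of all genes lower, or 10.6% without it), with Cnfn at -0.70, Krtdap at -0.61, Krt1 at -0.58 and Ppl at -0.50. It had 8 of 18 lipid barrier genes lower, or 10 without the array that stood apart, led by Abca12 (-0.78, adjusted p = 1.99e-06), a lipid transporter, and 1 higher, Ugcg (0.27). Of the tongue and oral genes 5 of 9 were lower, with Krt84 at -0.66 and Krt6b at -0.63. By group means, Cnfn, Krtdap, Ppl, Krt84 and Krt6b were below PLKO on the control diet only. Ppl stood at 8.37 against 9.55 with PLKO on that diet, and at 9.16 against 8.98 on the PA-rich diet. Abca12 was lower on the control diet and level on the PA-rich diet, at 7.65 with each hairpin. Krt1 was lower on each diet, with 6.61 against 7.33 on the PA-rich diet. With shGAL 7 of 27 envelope genes were higher (11.2% of all genes higher), with Sprr2d at 2.00 (adjusted p = 4.68e-06) and S100a9 at 1.04. Of the lipid barrier genes 9 of 18 were higher and 1 lower, with Ugcg at 0.78 and Smpd1 at -0.25. With shEGR2_40.9 4 of 18 lipid barrier genes were higher (7.67% of all genes higher), including Alox12b (0.58) and Elovl4 (0.41), and 1 envelope gene, Krt10 (0.89), while Sprr2d (-0.85) and Zfp750 (-0.28) were lower.

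Some markers of other cell types moved with the same groups. The mean level of 8 endothelial markers was 9.48 to 9.75 on the shEGR2_40.9 control arrays and 9.53 to 10.06 on the shEGR2_38.9 control arrays, against 7.65 to 8.46 on the arrays of the other 6 groups. With shEGR2_38.9, 7 of 8 were lower on the PA-rich diet (median -1.6), against 8.3% of all genes, and without the array that stood apart 8 of 8 (median -1.74, against 8.71%). With shEGR2_40.9, 7 of 8 were lower on that diet (median -1.33), against 5.22% of all genes. The mean of 4 macrophage markers was 8.05 to 8.14 in shEGR2_38.9 control and 7.74 to 7.90 in shEGR2_40.9 control, and 7.04 to 7.36 elsewhere; Adgre1 and Lyz2 were below the floor. The diet lowered 3 of these 4 with shEGR2_38.9 and 2 of 4 with shEGR2_40.9. The 4 did not move alike. Mrc1 had group means of 8.74 in shEGR2_40.9 control and 9.76 in shEGR2_38.9 control, against 6.4 to 7.49 elsewhere. Cd14 stood at 7.93 and 7.98 in the same order, against 7.06 to 7.42. Csf1r was not raised there, at 6.87 and 6.94 against 6.96 to 7.03. Cd68 had its highest mean in shEGR2_40.9 PA-rich, at 7.95. Of 7 fibroblast markers 3 were kept, and Col1a2, Pdgfra, Lum and Dpt were below the floor. Their mean was 10.25 to 11.08 in shEGR2_40.9 control and 9.24 to 11.08 in shEGR2_38.9 control, which overlapped the 8.19 to 11.04 of the other groups. The group means of Col3a1 were 10.73 and 9.97 in these 2 control groups against 7.29 to 8.71 elsewhere, and those of Col1a1 9.70 and 9.37 against 6.93 to 8.69. Neither passed by limma in any comparison with all 24 arrays, although 3 of 3 had an unadjusted p under 0.05 for the diet with shEGR2_40.9 and 2 of 3 with shEGR2_38.9. Dcn, the third, changed by 0.44 with the diet for shEGR2_38.9 and by -0.43 for shEGR2_40.9.

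The 9 genes did not share one pattern over the 2 control groups with high endothelial markers. Hoxc13 had its 2 lowest means there, 7.96 in shEGR2_40.9 control and 7.84 in shEGR2_38.9 control, as did Ivl (7.83 and 7.66), whose neighbouring groups overlap. Several genes of the follicle and envelope lists were also lowest there. Examples were Foxq1 (6.49 and 6.89, with shGAL PA-rich at 6.9), Cdsn (6.36 and 6.76), Sprr2d (6.4 and 6.82) and Sprr2a1 (10.67 and 10.37). Ovol1 (12.04 and 11.87), Eda, Hr and Wnt10b were others. Tchh (10.05 and 7.85) and Dsc1 (9.37 and 6.82) had their highest mean in shEGR2_40.9 control and a low one in shEGR2_38.9 control. Sdr9c7 stood at 9.23 and 7.45, Sprr1a at 11.49 and 10.17, Sprr1b at 10.17 and 8.66, Tgm1 at 12.10 and 11.80, and Tgm3 at 11.79 and 10.50. The part of these cells in the results for the 9 genes was not tested.

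**Figure D5:**
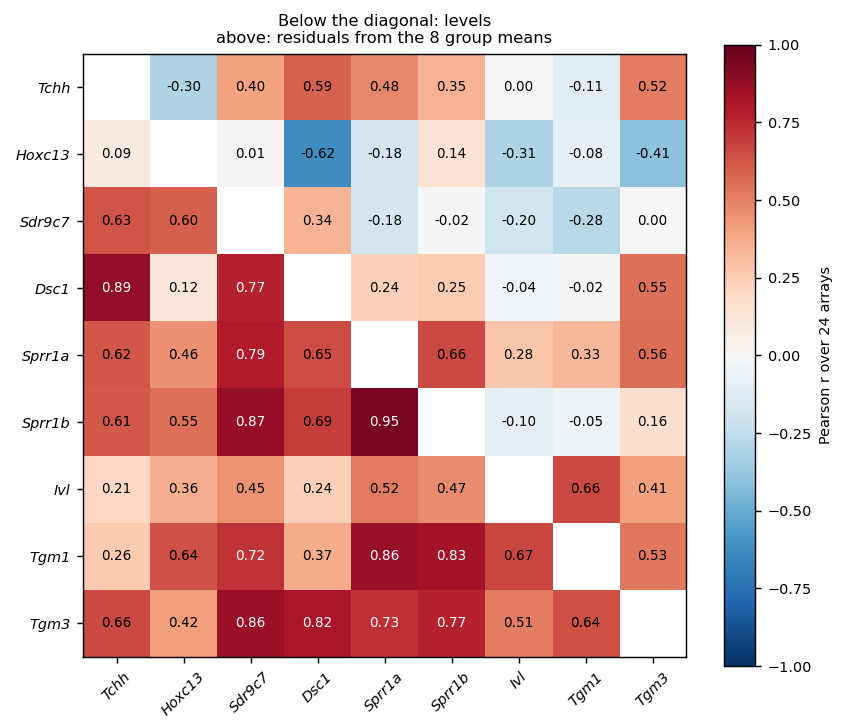
Pearson correlation between the 9 genes over 24 arrays; cells below the diagonal use the log2 levels and cells above it the residuals from the 8 group means, with red above 0 and blue below. Sprr1a and Sprr1b reach 0.95 in levels and 0.66 in residuals, and the lowest value in levels is 0.09, between Hoxc13 and Tchh.

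How the 9 genes varied together is given over 24 arrays, which share groups and scan batches, as a description. Sprr1a and Sprr1b correlated at 0.95 in levels, and at 0.66 in the residuals from the group means. Tchh and Dsc1 correlated at 0.89 and 0.59. Sdr9c7 correlated with Sprr1b at 0.87 and with Tgm3 at 0.86 in levels, but at -0.02 and 0.00 in residuals, so this likeness lay between groups and not between arrays of a group. Ivl and Tgm1 correlated at 0.67 in levels and 0.66 in residuals. The lowest correlations in levels were those of Hoxc13 with Tchh (0.09) and Dsc1 (0.12), then those of Ivl with Tchh (0.21) and Dsc1 (0.24). With the other members Hoxc13 correlated at 0.36 (Ivl) to 0.64 (Tgm1) in levels. In residuals Hoxc13 and Dsc1 correlated at -0.62, or -0.39 without the array that stood apart.

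The genes outside the set whose levels were most like each member were taken among the 11844 kept. For Tchh they were Serpinb11 (Pearson r 0.865), Psapl1 (0.850), Serpinb3a (0.850), Gdpd3 (0.807) and Ly6g6c (0.801), and in residuals Serpinb11 (0.802) and Psapl1 (0.794) again led. For Sdr9c7 they were Gjb2 (0.955), a gap junction protein, Elovl4 (0.932), Me1 (0.922), Tlcd3a (0.919) and Dsg1a (0.911). Dsc1 was closest to Me1 (0.912), Ly6g6c (0.903), Psapl1 (0.885), Hebp2 (0.869) and Alox12b (0.869). Hoxc13 was closest to Pm20d1 (0.886), Sox6 (0.869), Ppfibp2 (0.869), Phlda3 (0.864) and Znrd2 (0.852), none of which was among the 5 closest to another member. The same held for the 5 closest to Ivl, to Tgm1 and to Tgm3.

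Sprr1a was closest to Lypd3 (0.906), Cnfn (0.905), Pdlim2 (0.899), Pdzk1ip1 (0.895) and Mfsd6 (0.890). Sprr1b shared Pdlim2 (0.917), Cnfn (0.914) and Mfsd6 (0.904) with it and added Gjb2 (0.905) and Alox12b (0.900). Tgm1 was closest to Erbb3 (0.946), a receptor counted here among the Schwann cell markers that is also expressed in epithelium, followed by Llgl2 (0.932), Homer2 (0.929), Cldn4 (0.918) and Scnn1a (0.917). Tgm3 was closest to 2310011E23Rik (0.948), Rhbg (0.941), Acer1 (0.935), Fermt3 (0.932) and Aldh3b2 (0.931). Ivl, whose groups barely differed, was closest to Rhox6 (0.850), Tex22 (0.838), Rpsa (0.816), Pbx4 (0.814) and Rps2 (0.814). In residuals the closest gene was Gldc (0.816) for Hoxc13, Col6a1 (0.712) for Sdr9c7, Grip1os1 (0.821) for Dsc1, Gsta2 (0.813) for Sprr1a, Dynap (0.801) for Sprr1b, Pif1 (0.897) for Ivl, Mcpt8 (0.876) for Tgm1 and Slpi (0.894) for Tgm3.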

How the data were processed

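Amplified, biotin-labelled RNA was read on 24 Affymetrix arrays of mouse probes. The values are log2 values that the authors deposited, made with RMA in affy (version not given) per the submitters' processing notes. Precision is limited by 3 arrays a group. Of 45141 probe sets 28898 had 1 gene symbol and 551 several. The brightest stood for each of 17097 genes, and those with a mean under the 40th percentile (6.27) were left out, which kept 11844. The test was that of limma 3.58.1 (R 4.3.3), fitted as 1 model of the 8 group means (16 residual degrees of freedom), two-sided, with Benjamini-Hochberg adjustment per comparison and a threshold of 0.05. The procedure was tested on simulated data.

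The members and gene lists were chosen with earlier results of these data known. The genes named are the 9 members, list members past the threshold between hairpins, up to 4 examples by size per list and diet comparison (more where a short list is given whole), and the 5 genes most correlated with each member over 24 arrays (of the 5 in residuals, the first). Of the list members past the threshold between hairpins, the text names examples. Within a hairpin, the labels give the same replicate number of the 2 diets the same scan batch, so numbers pair arrays by batch. Residual correlations of the 12 same-number pairs ran from -0.03 to 0.24, with 7 above 0.1. Scan batch was tried as a block. The other alternatives were no filter, only the arrays compared, renewed quantile normalization, the mean over probe sets, every probe set on its own, an intensity trend with a robust prior, and each array left out. Promoter windows came from RefSeq on GRCm38.p6.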

Additional observations from a re-analysis of the deposited data

Results flagged for a closer look

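The diet effect was flagged as differing between hairpins by the interaction term in limma for 9 results. Those of Sprr1a with shEGR2_38.9 are descriptions only. For shEGR2_38.9 minus PLKO these were Sprr1a (1.5), Sprr1b (1.87), Tgm1 (0.43) and Tgm3 (1.17). For shGAL minus PLKO it was Sprr1b (0.86). For shEGR2_38.9 minus shEGR2_40.9, a comparison added after the values were seen, they were Sprr1a (1.66), Sprr1b (1.83), Tgm1 (0.46) and Tgm3 (0.97). The values of Sprr1a with shEGR2_38.9 hold a rise that was known from earlier results of these data and are not independent evidence. Those of Sprr1b, which followed Sprr1a, largely repeat it.

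For the 4 genes chosen on diet, the replicate numbers of a pair of hairpins all moved in opposite directions in 10 cases, and these differences were not tested. Against PLKO they were 1.33 for Hoxc13 with shEGR2_40.9. With shEGR2_38.9 they were 2.45 for Tchh, 1.67 for Hoxc13, 2.60 for Sdr9c7 and 2.51 for Dsc1. With shGAL they were 2.46 for Tchh, 1.10 for Sdr9c7 and 1.53 for Dsc1, and Tchh rested on a replicate number that differed by 0.0039. Between shEGR2_38.9 and shEGR2_40.9 they were 1.21 for Tchh and 2.12 for Dsc1.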

How the results depend on the processing

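Of 76 differences of single genes fitted with a test, between 70 and 74 kept their direction and their side of the threshold in each of 7 alternative settings. The 76 include those of Sprr1a with shEGR2_38.9 that are given above as descriptions. With the replicate block (scan batch) 72 did; 3 calls were lost (Hoxc13 -0.31 for shEGR2_38.9 minus PLKO, Sdr9c7 0.32 and Tgm3 0.16 for shGAL minus PLKO) and 1 was gained (Sprr1a 0.66 for the shGAL diet effect minus that of PLKO), so that the count there was 2 in place of 1. The block changed no other call of the 9 genes. The number of calls in that comparison was also 2 with the mean over probe sets and with the trend and robust prior, and 0 with renewed quantile normalization and with every probe set on its own. For the diet with PLKO the count of 2 became 0 with only the arrays compared and 1 with every probe set on its own. Leaving out 1 array gave 0 to 2 calls for the diet with PLKO, 1 to 2 with shEGR2_40.9 and 0 to 2 for shGAL minus PLKO; the other counts stayed within 1.5 times. The cause was not tested. Every reversal was of a difference near 0 that passed in no setting run. Ivl turned with the mean over probe sets to 0.03 (diet with PLKO), -0.02 (shGAL) and -0.05 (shGAL minus PLKO), and with renewed quantile normalization to -0.01 (shGAL). With 1 array left out, the ranges that crossed 0 were -0.06 to 0.03 (Ivl for shEGR2_40.9 minus PLKO over both diets), -0.02 to 0.01 (Tgm1 for shEGR2_40.9 minus PLKO over both diets), -0.04 to 0.11 (Dsc1 for shGAL minus PLKO over both diets), -0.06 to 0.13 (Hoxc13 for shEGR2_38.9 minus shEGR2_40.9 over both diets), -0.10 to 0.02 (Ivl for the diet with PLKO), -0.02 to 0.08 (Tgm3 for the diet with shEGR2_40.9), -0.01 to 0.15 (Sprr1a for the diet with shGAL), -0.14 to 0.15 (Ivl for the diet with shGAL), -0.08 to 0.01 (Tgm1 for the diet with shGAL), -0.08 to 0.16 (Sprr1b for the diet with shEGR2_40.9 minus diet with PLKO), -0.06 to 0.00 (Tgm1 for the diet with shEGR2_40.9 minus diet with PLKO), -0.09 to 0.21 (Ivl for the diet with shGAL minus diet with PLKO), -0.01 to 0.08 (Tgm1 for the diet with shGAL minus diet with PLKO), -0.01 to 0.18 (Tgm3 for the diet with shGAL minus diet with PLKO). The described diet differences kept their sign in every setting. Leaving out 1 array moved some by 1.5 times or more. Tchh came to -0.42 without shEGR2_40.9 PA-rich replicate 1, to 0.27 or 0.35 without shEGR2_38.9 PA-rich or control replicate 3, and to 0.36 without shGAL PA-rich replicate 3. Sdr9c7 came to -0.02 without shEGR2_40.9 PA-rich replicate 1 and -0.18 without replicate 2, and to 0.16 without shGAL control replicate 2, where Dsc1 came to 0.24. That of Sdr9c7 moved with PLKO to -0.50 and with shEGR2_38.9 to 1.45 with the mean over probe sets, and with PLKO to -0.73 with renewed quantile normalization. Over all genes, the fit of only the arrays compared changed the calls for the diet from 140 to 70 (PLKO), 2623 to 1295 (shEGR2_38.9) and 230 to 47 (shGAL, 384 with the mean over probe sets), and for the difference in diet effect from 493 to 762 (shEGR2_40.9 minus PLKO), 158 to 105 (shGAL minus PLKO) and 660 to 431 (between EGR2 hairpins). The replicate block changed them from 2327 to 1444 (shEGR2_38.9 minus PLKO) and 1264 to 840 (between EGR2 hairpins). The low number of arrays, 3 a group, limits the precision.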
